A study of Mus musculus with 12 samples.

Results

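The 8 libraries titled E1 or E4, 4 of each, were chosen by title out of the 12 dentate gyrus libraries of the series, to ask how accessible chromatin changes from E1 to E4 after neurons are activated. The remaining 4 libraries, titled E0, served as a reference that did not enter the comparison. Every library was made by ATAC-seq from the microdissected dentate gyrus of 1 C57BL/6 mouse 8 weeks old, and the 3 groups differ by title alone. The labels give no treatment or time. The published study, as far as it is known here, used electroconvulsive stimulation, with E0 before it and E1 and E4 taken 1 h and 4 h later.

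ATAC-seq uses a transposase that cuts into open DNA, so that reads gather at promoters, enhancers and other sites where nucleosomes have been displaced. The dentate gyrus holds the granule neurons, the first relay of the hippocampal circuit. In neurons, strong firing sends calcium signals to the nucleus and turns on immediate early genes within minutes, among them transcription factors that bind enhancers and open them. Their targets follow in a later wave, and many of the early openings are known to be brief. The dissected tissue also holds interneurons and glia. Fewer cells of a type and less open chromatin per cell cannot be told apart in such bulk libraries, and no cell type marker was checked here because the gene positions at hand belong to another genome build.

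Each library is given as a list of peaks with a score per peak, the authors' own value, on mm9. Peaks of the 8 lists that shared at least 1 bp were merged into 152383 regions. A region held by all 4 E1 lists and by none of the E4 lists is called E1-only below, and the opposite case E4-only. Depth is unknown, because the lists give no read counts, and the absence of a peak does not show closed chromatin. Scores are not on a common scale between lists, so a score is read against others of its own list, as a percentile, and printed scores serve as descriptions. The labels give each library as a separate animal.

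Before any region is considered, the E4 lists differed far more among themselves than the E1 lists. On chromosomes 1 to 19 and X, E4 replicate 1 had 104120 peaks, replicate 2 had 34863, replicate 3 had 24426 and replicate 4 had 31742. The 4 E1 lists held 64152 to 84776. E4 replicate 1 thus lay above every E1 library and the other E4 libraries lay below all of them. Median peak width was 431 bp in E4 replicate 1 and 253 to 302 bp in E4 replicates 2 to 4, against 369, 422, 319 and 295 bp in E1 replicates 1 to 4. E1 replicates 1 and 2 and E4 replicate 1 had the widest peaks of the 8 lists.

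**Figure D1:**
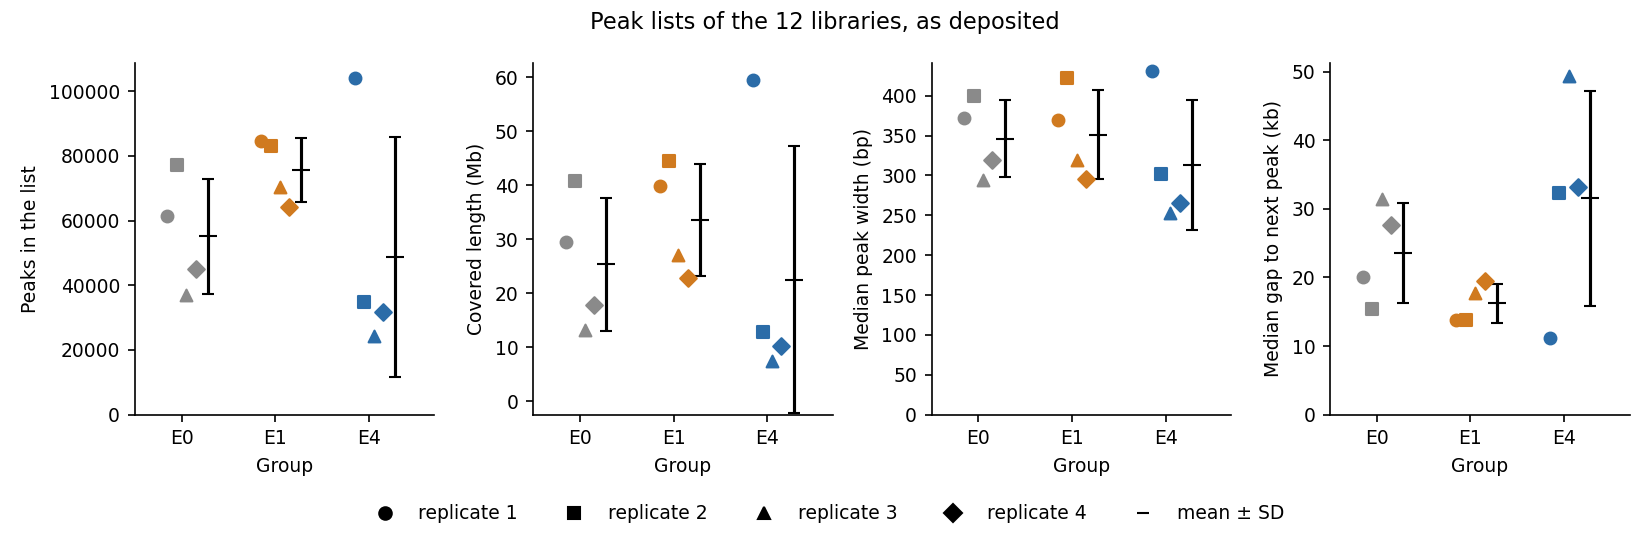
Number of peaks, covered length in Mb, median peak width in bp and median gap between neighbouring peaks in kb (vertical axes) for each library of E0, E1 and E4 (horizontal axis), lists as deposited. Symbols mark the replicate, and the black bar with whiskers is the group mean ± SD (n = 4). The E4 group splits into replicate 1 at 104120 peaks and 3 libraries between 24426 and 34863, on either side of the E1 libraries.

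The typical gap from a peak to the next was wider at E4 on average, by a margin that did not pass the test. It measured 13.8, 13.8, 17.7 and 19.5 kb in E1 replicates 1 to 4 and 11.2, 32.4, 49.3 and 33.2 kb in E4 replicates 1 to 4. The means were 16.2 ± 2.86 kb at E1 and 31.5 ± 15.6 kb at E4 (SD, n = 4), 15.3 kb apart (exact two-sided permutation test over 70 assignments, p = 0.143, adjusted p = 0.514 over 6 measures). Without E4 replicate 1 the groups did not overlap and the difference was 22.1 kb (exact permutation p = 0.0286, the smallest possible). It was 58.5 kb among peaks scoring at least 100 and -1.76 kb with lists cut to equal length as described next (exact permutation p = 0.143 and 0.171). None of the 6 measures passed the test, with adjusted p from 0.514 to 0.629. The share of peaks on chromosome X was 2.94 ± 0.375% at E1 and 2.68 ± 0.174% at E4 (SD, n = 4, exact permutation p = 0.257, adjusted p = 0.514).

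To take list length out of the comparison, every list was also cut to its 24426 highest scores, the length of the shortest. The lowest score kept was then 50 in E4 replicate 3, 65.6 in replicate 4, 69.5 in replicate 2 and 309.7 in replicate 1, against 114 to 188 in the E1 lists. Similarity was measured by the Jaccard index, the bp that a pair of lists shares divided by the bp that either covers. At equal length the mean was 0.462 ± 0.0820 among E1 libraries (SD, 6 pairs), 0.278 ± 0.0657 among E4 libraries (SD, 6 pairs) and 0.333 ± 0.0975 between the groups (SD, 16 pairs). Pairs within a group exceeded pairs between groups by 0.0368, which did not pass the test (exact one-sided permutation test over 35 divisions, p = 0.171). E4 replicate 1 shared 0.319 to 0.557 with the E1 lists and 0.179 to 0.293 with the other E4 lists. Leaving out E4 replicate 1 raised the excess of pairs within a group to 0.118 (exact permutation p = 0.0286, the smallest possible). Equal length did not equalise the bp covered. E4 replicate 1 covered 25.3 Mb and E4 replicates 2 to 4 covered 7.48 to 10.1 Mb, with every E1 list in between. Unequal cover bounds this index, so its low values with the other E4 lists do not by themselves show that fewer sites were shared. The part of covered length in these values was not tested.

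Regions that separated the groups by presence were far more often E1-only than E4-only. There were 766 E1-only regions, 0.503% of the 152383 tested, and 19 E4-only regions, 0.0125%. Once cut to equal length, the lists gave 505 of 56908 regions (0.887%) as E1-only and 97 (0.17%) as E4-only. By Fisher's exact test each such region reaches p = 0.0286, the floor for 4 libraries against 4, which does not survive adjustment for the number of regions. The E1 lists also shared more with each other: at equal length all 4 held 13609 regions in common, against 9088 for the E4 lists. The part of this in the imbalance was not tested.

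**Figure D2:**
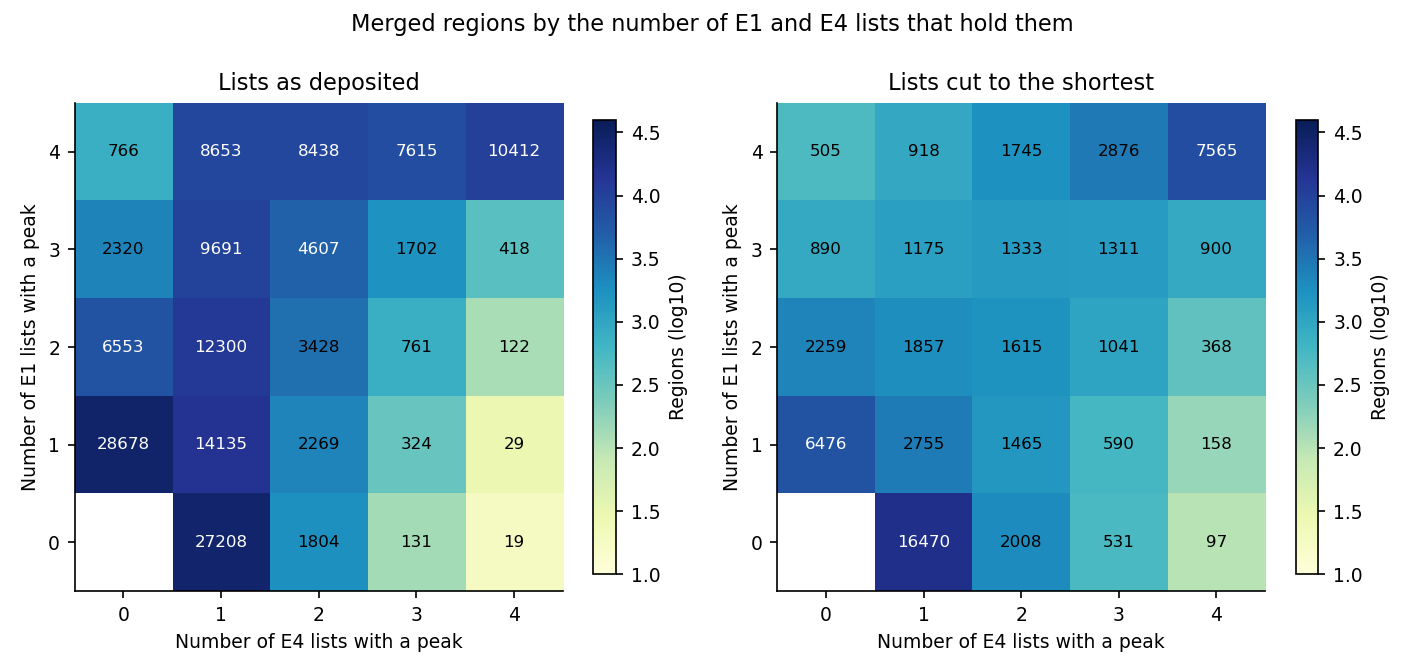
Number of merged regions (cell text, colour on a log10 scale) by how many of the 4 E4 lists (horizontal axis) and of the 4 E1 lists (vertical axis) hold a peak there, for lists as deposited (left) and lists cut to the shortest (right). The top left cells hold the E1-only regions, 766 and 505, and the bottom right cells the E4-only regions, 19 and 97.

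A single library set the number of E1-only regions in the lists as deposited. All 4 E1 lists held 35884 regions, of which E4 replicate 1 held 97.6%, replicate 2 60.7%, replicate 4 53.2% and replicate 3 39.3%. Another 8653 regions had 4 E1 peaks and 1 E4 peak, which lay in E4 replicate 1 in 8572 cases. Leaving out E4 replicate 1 therefore gave 9338 E1-only regions. Leaving out an E1 library, which relaxes the criterion to 3 lists, gave 1123, 1187, 1356 and 1718 for replicates 1 to 4. Leaving out E4 replicate 2, 3 or 4 gave 782 to 803. E4-only regions numbered 66, 67 and 53 without E4 replicates 2, 3 and 4. At equal length, leaving out E4 replicate 1 raised the E1-only number from 505 to 1096. With all 3 of the lists with the widest peaks left out, E1 replicates 3 and 4 against E4 replicates 2 to 4 gave 13985 E1-only and 110 E4-only regions, and with lists of equal length 2612 and 569.

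The 2 ways of using the lists named largely different regions. Only 9 regions were E1-only both ways, 1.17% of the 766 and 1.78% of the 505. Of the 505 found at equal length, 495 had a peak in E4 replicate 1 below the cut, 78 in replicate 2, 43 in replicate 4 and 0 in replicate 3. For reference, the other regions with a peak in exactly 4 of 8 lists are called mixed regions, 13443 with lists as deposited and 3380 at equal length. Averaged over the lists with a peak, the score percentile had a median of 40.9 for the 766 and 41.1 for mixed regions. At equal length the medians were 39.3 for the 505 and 33.1 for mixed regions. Of the 97 E4-only regions at equal length, 5 remained with lists as deposited, where 38 had a peak in all 4 E1 lists.

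E1-only regions were mostly regions without a peak at E0. No E0 list held 522 of the 766 (68.1%), against 32.4% of mixed regions and 48.6% of all regions. All 4 E0 lists held 21 (2.74%), against 9.78% of mixed and 14.7% of all regions. At equal length 335 of the 505 (66.3%) were in no E0 list, against 33.1% of mixed and 48.9% of all regions. The trait was not particular to E1-only regions. With lists as deposited, 1642 of the 2320 regions in 3 E1 lists and no E4 list were also in no E0 list. So were 23513 of the 28678 regions in 1 E1 list and no E4 list. In the opposite case, 1 E4 list and no E1 list, it was 19649 of 27208. Mixed regions mostly had a peak in E4 replicate 1, the longest list, which E1-only regions lack by definition. That list held 9462 of the 9691 mixed regions with 3 E1 peaks. The part of this in the contrast was not tested. In each E0 list the 505 were present in 17.8 to 20.6% of cases and mixed regions in 39.1 to 50.9%. A peak at E1 alone was thus the commonest pattern among E1-only regions. The E0 lists were not used to choose them, and the shares are descriptions, with no test. Of the 19 E4-only regions, 6 were in no E0 list and 4 were in all 4. Of the 97 found at equal length, 32 (33.0%) were in no E0 list and 19 (19.6%) in all 4, beside 33.1% and 19.3% of mixed regions.

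E1-only regions had a median width of 458 bp (quartiles 393 and 544 bp), against 489 bp for mixed regions, and lay a median of 77.7 kb from the nearest region held by all 8 lists, against 69.9 kb. E4-only regions had a median width of 750 bp and lay a median of 18.6 kb from such a region, with an n of 19. At equal length the widths were 648 bp for E1-only, 823 bp for E4-only and 692 bp for mixed regions, and the distances were 115 kb, 84.8 kb and 95.2 kb in the same order. Regions held by all 8 lists were wider still, with a median of 1263 bp. These are descriptions, with no test.

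The 10 E1-only regions with the highest mean percentile were led by a broad one on chr13:111188658-111193955 (mm9, 5298 bp). A single peak spanned 4843 bp of it in E1 replicate 1, 3763 bp in replicate 2, 3111 bp in replicate 3 and 2378 bp in replicate 4, with scores of 222, 294, 383 and 490. It had no peak in any of the 8 other lists of the series. Its percentile ran from 76.5 to 98.0 across the E1 libraries. Next came chr10:43409436-43410127 (692 bp), with scores of 254, 342, 221 and 266 in E1 replicates 1 to 4. chr8:36470138-36470641 (504 bp) scored 258, 288, 247 and 255. Both lacked a peak in every E0 and E4 list. The second had a mean score of 262 ± 18.0 (SD, n = 4), at percentiles of 80.5 to 89.7 in the E1 lists.

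chr11:18277253-18277789 scored 280, 219, 204 and 199 in E1 replicates 1 to 4, chrX:142995299-142995734 scored 167, 288, 167 and 253, and chr1:133014983-133015632 scored 204, 315, 194 and 150. None of these 3 was called at E0. chr2:103802476-103803044 stood apart from them, since every E0 list held it: it scored 249, 266, 88.9 and 114 in E0 replicates 1 to 4 and 404, 324, 143 and 139 in E1 replicates 1 to 4, and no E4 list held it. The last 3 had a peak in 1 or 2 of the E0 lists. They lay on chr18:55798923-55799549 (mean score 205 ± 22.6), on chr16:86934953-86935777 (197 ± 29.7) and on chr12:93986939-93987537 (195 ± 28.3, SD, n = 4 E1 lists). Of the 10 regions, all met the criterion with any single library left out, which the criterion itself ensures. At equal length 7 of the 10 met it, and with lists of 12000, 0 of the 9 regions still found did.

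**Figure D3:**
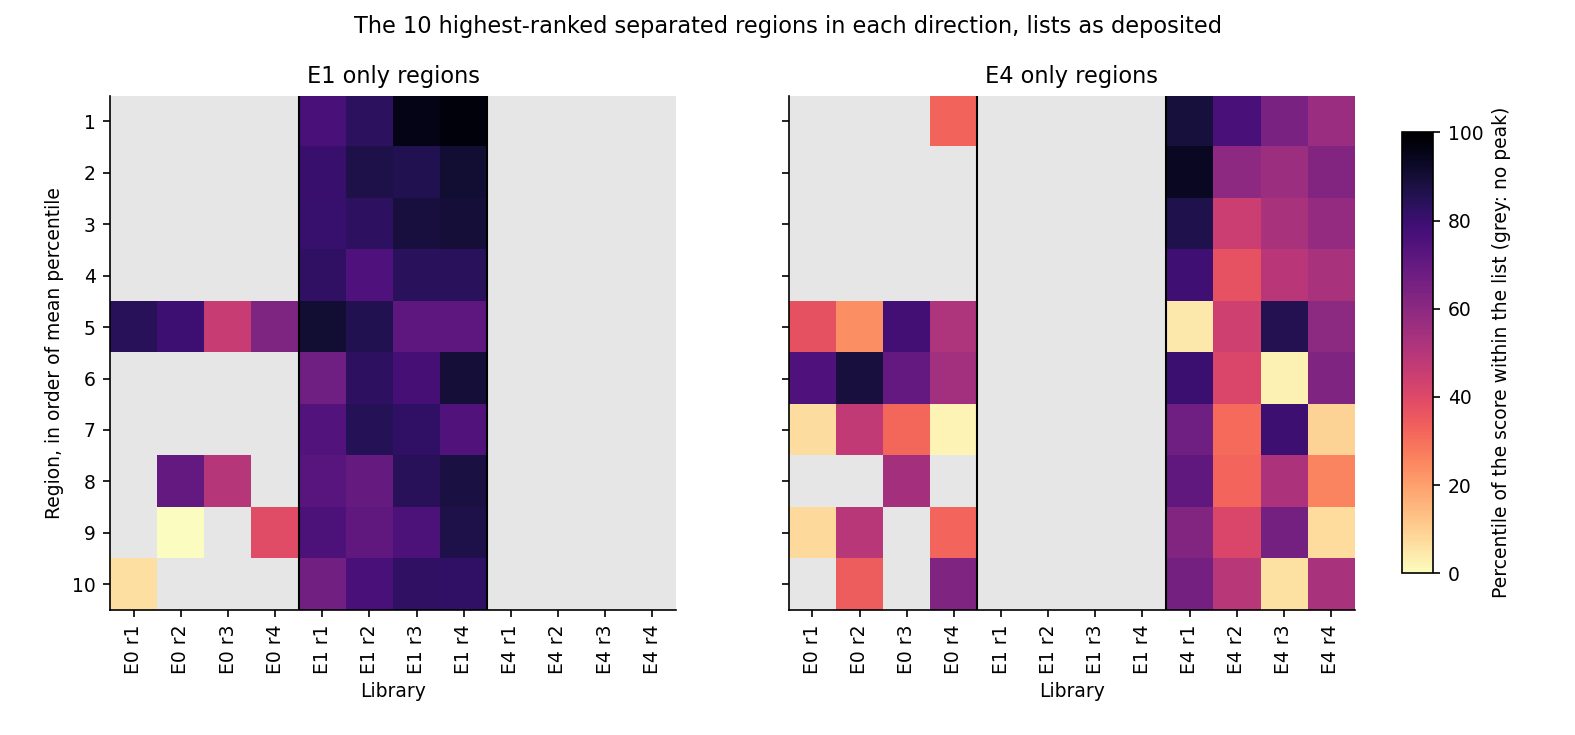
Percentile of the score within each list (colour, grey where the list has no peak) for the 10 highest-ranked E1-only (left) and E4-only (right) regions, in rows, across the 12 libraries, in columns, lists as deposited. Of the E1-only regions 6 are blank in all E0 lists, whereas 3 of the E4-only regions are. The score percentiles reach 98.0 on the left and 93.7 on the right.

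Among E4-only regions the highest-ranked lay on chr14:26064280-26065100 (821 bp). It scored 538, 143, 82.7 and 93.4 in E4 replicates 1 to 4 and 68.7 in E0 replicate 4, the only E0 list with a peak there. chr11:35508550-35509361 (812 bp) scored 732, 101, 74.4 and 103 in the same E4 order. chr6:52932943-52933705 (763 bp) scored 472, 82.6, 71.3 and 95.7. In each of these 3 regions the highest score was that of E4 replicate 1.

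chr10:20654796-20655595 scored 338, 74.8, 68.3 and 89.4 in E4 replicates 1 to 4 and, as on chromosomes 11 and 6, had no peak in any E0 list. Those 3 regions were therefore called at E4 alone among the 12 libraries. chr13:76316088-76316637 was instead held by every E0 list. It scored 177, 408, 139 and 95.0 in E0 replicates 1 to 4, had no E1 peak, and scored 358, 78.7, 51.2 and 103 in E4 replicates 1 to 4. A further pair had a peak in all 4 E0 lists, none at E1 and one in each E4 list, on chr11:53953548-53953840, with E4 scores of 53.5 to 133, and on chr4:46805401-46806001, with E4 scores of 56.9 to 220. The chromosome 11 region of this pair failed the criterion when peaks up to 100 bp apart were merged. It also failed when regions were merged from all 12 lists. Its peak in E4 replicate 1 stood at percentile 4.42 of that list. The last 3 of the 10 had a peak in 1 to 3 E0 lists. They lay on chr17:45276681-45277312, chr16:89968143-89968851 and chr12:83126855-83127618, with mean E4 scores of 115, 102 and 110. At equal length 5 of the 10 met the criterion, and 1 did when peaks had to cover 50% of the region. Among peaks scoring at least 100, 0 of the 10 met it, against 10 of the 10 named E1-only regions. With lists of 12000, 0 of the 8 regions still found met it.

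At equal length the E1-only list was led by chr8:105531865-105532581 (717 bp). Its scores were 512, 570, 496 and 344 in E1 replicates 1 to 4, 190, 151, 161 and 142 in E0 replicates 1 to 4 and 180 in E4 replicate 1, with no call in the other E4 lists. chr1:71043834-71044651 (818 bp) scored 440, 531, 406 and 400 at E1, 62.8 to 86.9 at E0 and 211 in E4 replicate 1 alone. chr2:148213782-148214593 (812 bp) scored 477, 582, 333 and 360 at E1, at most 151 at E0 and 185 in E4 replicate 1 alone. All 10 leading regions of this kind had a deposited peak in E4 replicate 1 and in no other E4 list. The remaining 7 had mean E1 scores of 364 to 402. They lay on chr3:20724326-20725294 and chr3:27918652-27919276, chr12:92458855-92459608, chr4:81852888-81853544, chr1:138417829-138418631, chr6:140049509-140050223 and chr18:52581719-52582348. The last of these was held by all 4 E0 lists at equal length.

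The E4-only list at equal length was led by chr10:9813212-9814251 (1040 bp). It scored 875, 169, 115 and 209 in E4 replicates 1 to 4, 113, 156, no peak and 69.0 in E1 replicates 1 to 4, and 302, 470, 159 and 275 in E0 replicates 1 to 4. At equal length all E0 and E4 lists kept it and no E1 list did. chr15:36982647-36983580 (934 bp) had the same pattern, with 248, 402, 129 and 101 at E0, 151, 83.4, 53.4 and no peak at E1, and 865, 162, 108 and 161 at E4. chr19:18494244-18495340 (1097 bp) differed from both, with 1 E0 peak at 64.2, E1 scores of 69.3, 81.0, 89.1 and no peak, and E4 scores of 741, 170, 89.7 and 197. The remaining 7 lay on chr17:75426556-75427223, chr2:152897393-152898142 and chr2:154495721-154496428, chr1:137999147-138000125, chr6:29697849-29699104, chr15:12610136-12611065 and chr16:90553208-90553896. Each had a deposited peak in 2 to 4 of the E1 lists, and 3 of the 7 were in all 4 E0 lists at equal length.

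The share of the E1 set held by the E4 libraries varied with the strength of the E1 peak and with the library. The 13609 regions common to the E1 lists at equal length were divided into quintiles by their mean E1 percentile. In the lowest, 74.6% had a peak in E4 replicate 1, 57.3% in replicate 2, 40.4% in replicate 3 and 51.0% in replicate 4. In the highest quintile the shares were 99.9%, 98.8%, 96.8% and 98.3%. The E0 lists of equal length rose as well, from 50.7 to 57.3% in the lowest quintile to 96.1 to 96.95% in the highest. The rise was thus not particular to E4. Most regions missing from every E4 list were weak at E1, with 340 of the 505 E1-only regions in the lowest quintile and 1 in the highest. Over all 13609 regions, E4 replicates 1 to 4 held 92.1%, 81.0%, 67.9% and 77.1%. The E0 lists, cut in the same way, held 75.9%, 77.5%, 73.9% and 74.99%. E4 replicates 1 and 2 lay above all E0 lists, replicate 4 lay among them and replicate 3 below them.

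**Figure D4:**
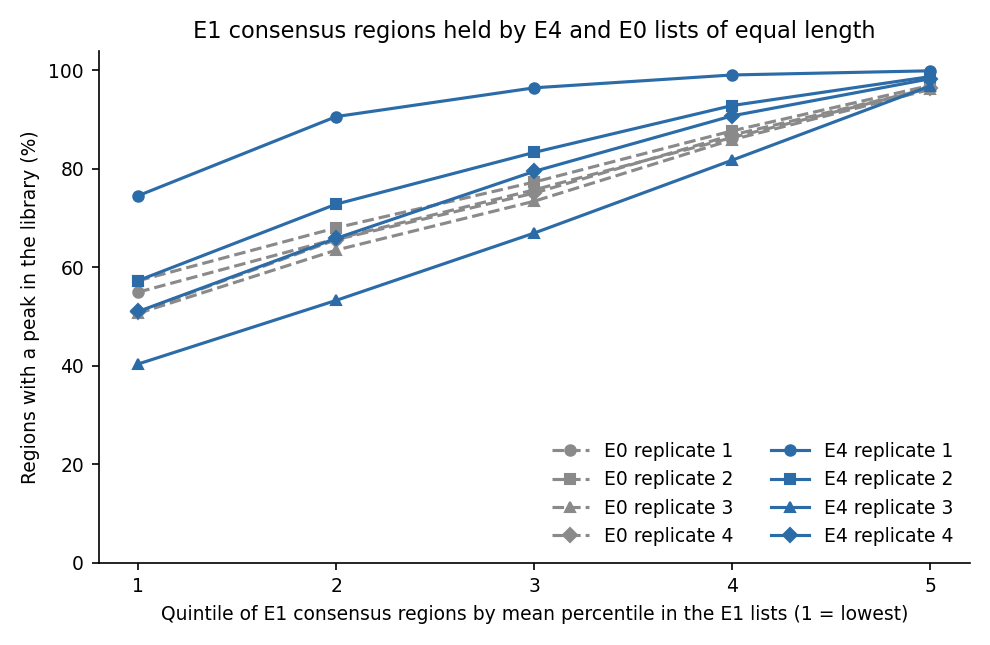
Share of regions with a peak (vertical axis, %) in each E4 library (solid lines) and E0 library (dashed lines), for quintiles of the 13609 regions common to the E1 lists at equal length, ordered by mean E1 percentile (horizontal axis, 1 is the lowest). E4 replicate 1 lies on top, from 74.6% to 99.9%. E4 replicate 3 rises from 40.4%, below the 50.7% to 57.3% of the E0 lists in the lowest quintile, to 96.8%, within their 96.1% to 96.95% in the highest.

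Whether E4 peak sets had moved back towards E0 was tested on the libraries, with the E0 lists as an outside reference. No shift beyond the spread between mice was found, which does not show that there was none. At equal length the mean Jaccard index with the 4 E0 lists was 0.400, 0.377, 0.362 and 0.344 for E1 replicates 1 to 4 and 0.385, 0.351, 0.239 and 0.308 for E4 replicates 1 to 4. The groups overlapped, with means of 0.371 ± 0.0237 and 0.321 ± 0.0629 (SD, n = 4), and the E4 mean was lower, not higher (exact two-sided permutation p = 0.2, adjusted p = 0.6 over 3 measures). Unequal cover bounds this index. At equal length E4 replicates 2 to 4 covered 7.48 to 10.1 Mb and E4 replicate 1 25.3 Mb, against 10.1 to 21.4 Mb in the E0 lists. The part of covered length in the difference was not tested. Among peaks scoring at least 100 the difference was -0.0741 (exact permutation p = 0.0286, unadjusted). Of the regions found in all 4 E0 lists, E1 libraries held 81.8 ± 2.75% and E4 libraries 78.8 ± 8.74% (SD, n = 4, exact permutation p = 0.6, adjusted p = 0.886). This difference of -2.99 percentage points was -18.5 with lists as deposited and -22.9 among peaks scoring at least 100 (exact permutation p = 0.143 for both). The share of peaks that met no E0 peak was 27.4 ± 2.20% at E1 and 28.2 ± 8.29% at E4 (SD, n = 4, exact permutation p = 0.886, adjusted p = 0.886). It was lower at E4 by the same settings, with differences of -8.85 and -15.5 percentage points (exact permutation p = 0.143 for both). E4 replicate 3 had the lowest likeness and the largest share without an E0 peak, 39.5%, against 19.9 to 28.5% in the other E4 libraries. Without it the difference in that share turned from 0.843 to -2.91 percentage points and that of the regions found in all E0 lists from -2.99 to 0.638 (exact permutation p = 0.286 and 0.857).

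Among regions with a single E4 peak and no E1 peak, E4 replicate 3 had the most once length was equal. Of 16470 such regions, 7548 lay in replicate 3, 4626 in replicate 4, 3220 in replicate 2 and 1076 in replicate 1. In the lists as deposited the order differed, with 18263 of 27208 in replicate 1. Regions with 1 E1 peak and no E4 peak numbered 6476 at equal length.

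Regions held by all 8 lists allow a comparison of strength in which every list has the same number of ranks. There were 10412 of them, and each library's scores were ranked over this one set, as a percentile from 0 to 100. List length still limits which regions enter: without E4 replicate 3, the shortest list, there were 15496. A region that lacked a peak in any list, and so may have weakened most, was not tested. No region passed the test for a change of rank: limma called 0 higher and 0 lower at E4 (0% of 10412, adjusted p under 0.05, lowest adjusted p = 0.101). At an unadjusted p under 0.05 there were 448 higher and 517 lower, together 9.27% of the 10412 regions. All 4 E4 percentiles lay above all 4 E1 percentiles in 264 regions (2.54%) and below them in 284 (2.73%). The standard error of a difference was 11.7 percentile points in the median region. Without E4 replicate 1 limma called 8 regions higher and 9 lower, and without E1 replicate 1 it called 1 higher.

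The region nearest to a call ranked lower at E4. On chr1:99944108-99944846 (739 bp) the percentiles were 60.1, 81.3, 82.9 and 86.3 in E1 replicates 1 to 4 and 12.1, 0.298, 16.1 and 13.1 in E4 replicates 1 to 4, a difference of -67.3 ± 12.6 (SE, limma, adjusted p = 0.101). The groups lay far apart, with E4 replicate 1 among the other E4 libraries. Its E0 percentiles, ranked over the same regions, were 19.1, 8.25, 26.3 and 40.4, so that E0 and E4 libraries alike lay below every E1 library. On chr15:43699462-43702012 (2551 bp) the percentiles were 79.9, 79.95, 69.2 and 88.8 at E1, 20.9, 24.9, 25.7 and 8.43 at E4 and 37.8, 53.7, 55.2 and 62.6 at E0 (difference -59.5 ± 12.5, SE, limma, adjusted p = 0.177). Here the E4 values lay below the E0 values as well.

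On chr6:22517453-22518742 (1290 bp) the percentiles were 90.8, 89.0, 87.1 and 91.7 at E1 and 58.0, 0.543, 20.01 and 39.9 at E4 (difference -60.0 ± 12.7, SE, limma, adjusted p = 0.177). A single E0 list held this region, replicate 2, at percentile 5.19. The regions on chromosomes 1, 6 and 18 were among the 9 called lower when E4 replicate 1 was left out. The remaining pair were chr18:3280526-3281606, at a difference of -58.8, where all 4 E0 lists had a peak, and chr4:77209121-77210240, at -54.3, where 3 did. Their E1 percentiles ran from 58.2 to 89.9 and their E4 percentiles from 1.09 to 51.8, without overlap in either region. In all 5 regions every E0 percentile lay below every E1 percentile. The regions were chosen by p for E1 ranks above E4 ranks, and an E0 list without a peak was ranked lowest. The order of E0 and E1 there is therefore a description, with no test.

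**Figure D5:**
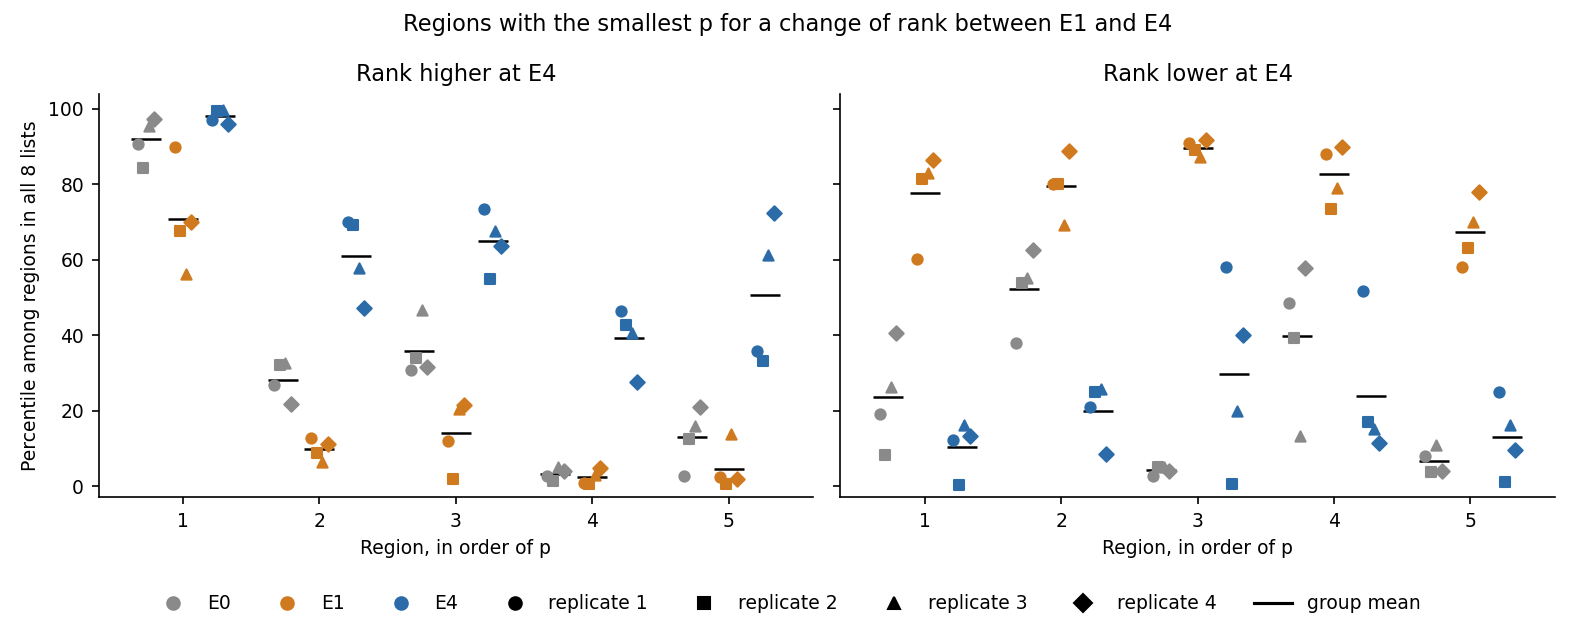
Percentile of the score among the 10412 regions held by all 8 lists (vertical axis) for the 5 regions with the smallest p in each direction (horizontal axis, in order of p), higher at E4 (left) and lower at E4 (right). Points are libraries, symbols mark the replicate, and black lines are group means. E0 libraries, ranked over the same regions with a missing peak lowest, are shown in grey. E1 and E4 libraries do not overlap in any of the 10 regions, and none passed the adjusted threshold.

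In the other direction, chr15:74915820-74917520 (1701 bp) had percentiles of 89.8, 67.5, 56.2 and 69.996 at E1 and 96.9, 99.3, 99.7 and 96.0 at E4 (difference 27.1 ± 5.96, SE, limma, adjusted p = 0.1802). At E0 it stood at 90.5, 84.2, 95.4 and 97.1. The E0 libraries overlapped with E1 replicate 1 and with the E4 libraries. On chr10:119474895-119476078 (1184 bp) the percentiles were 12.6, 8.86, 6.42 and 11.2 at E1 and 70.01, 69.2, 57.7 and 47.1 at E4 (difference 51.2 ± 11.9, SE, limma, adjusted p = 0.218). Its E0 percentiles of 26.7, 31.97, 32.7 and 21.6 fell between the groups.

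chr14:80267907-80268885 (979 bp) was the one of these regions that no E0 list held. It stood at 0.869, 0.523, 3.06 and 4.67 at E1 and at 46.4, 42.8, 40.5 and 27.7 at E4 (difference 37.1 ± 9.21, SE, limma, adjusted p = 0.218). chr13:16665683-16667268 differed by 51.0 and chr3:58942851-58944115 by 46.1 points (adjusted p = 0.218 for both). The former had E0 percentiles of 30.7 to 46.5, above all its E1 percentiles of 1.97 to 21.5. All 10 regions kept the direction of their difference in every alternative fit on the percentile scale. They were chosen by p in these data and their groups did not overlap, so most of these fits could hardly reverse it.

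E1-only regions were spread over the genome. In the lists as deposited they fell into 616 windows of 1 Mb, and the fullest window, on chr2:78000001-79000000, held 5 beside 4 mixed regions. Their share of all regions ran from 0.116% on chromosome 19, with 4, to 0.664% on chromosome 6, with 62. At equal length the fullest of 437 windows was on chr18:52000001-53000000, with 4 E1-only and 2 mixed regions. No E4-only region lay in either window. These counts are descriptions, with no test.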

How the data were processed

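The authors deposited 1 peak list per library. The submitters' processing notes name Bowtie2 as a tool and mm9 as the build, and the deposited peak names start as MACS writes them. For the caller's version, control, threshold, read shift and duplicate filter, the sources used here give nothing. Each peak has a score as deposited by the authors, of unstated scale, which served to rank and cut each list on its own. Samples were grouped by title.

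Lists on chromosomes 1 to 19 and X were merged at 1 bp or more (checked against bedtools 2.31.1). Coordinates are written from 1. A region's score in a list is that of its highest peak. Library values were compared by exact permutation tests over samples with Benjamini-Hochberg adjustment (Python 3.11.15, scipy 1.17.1). Ranks over regions held by all 8 lists were fitted with limma 3.58.1 (trend and robust moderation, adjusted over all regions), tested on simulated data. Depth is unknown, so no interval for sampling error is given.

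Named regions are the 10 per direction with the highest mean percentile among separated regions, for lists as deposited and of equal length, and, as none passed limma's threshold, the 5 per direction with the smallest p. The comparison, tests and rules were chosen with earlier results of these data known. Alternatives covered list length, score, merging, covered share, single libraries, rank scale and the replicate number. Leaving out the 3 lists with the widest peaks, and single libraries at equal length, was chosen after seeing the data. Gene lists, cell type markers and motifs were not analysed here, since they need positions or sequence in mm9.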

Additional observations from a re-analysis of the deposited data

Results flagged for a closer look

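Flags were raised where 1 library of a group of 4 lay apart by Dixon's test, the gap to its neighbour over the group's range. The test was run on 58 groups, of which about 5% would be flagged with no library apart. E4 replicate 1 was flagged for its number of peaks, 104120 against 24426 to 34863, and for its covered length, 59.5 Mb against 7.48 to 12.7 Mb. E4 replicate 3 was flagged for its share of peaks on chromosome X, 2.94% against 2.58 to 2.60%.

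Of the 10 named E4-only regions, 6 were flagged for the score in E4 replicate 1. It was 538 at chr14:26064280-26065100 (others 82.7 to 143), 732 at chr11:35508550-35509361 (74.4 to 103), 472 at chr6:52932943-52933705 (71.3 to 95.7), 338 at chr10:20654796-20655595 (68.3 to 89.4), 358 at chr13:76316088-76316637 (51.2 to 103) and 251 at chr17:45276681-45277312 (66.9 to 71.2). Scores are not on a common scale between lists. Over its whole list E4 replicate 1 had a median score of 135, against 69.1 to 88.1 in the other E4 lists. A high score there is thus not particular to these regions. In the comparison of ranks, E1 replicate 3 was flagged at chr3:58942851-58944115, at percentile 13.7 against 0.437 to 2.30, and E4 replicate 1 at chr18:3280526-3281606, at 51.8 against 11.4 to 16.9.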

How the results depend on the processing

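Number of peaks, E4 minus E1, ran from -45270 to -18705 over single omissions (exact permutation p = 0.0286 without E4 replicate 1), and the gap between peaks from 9.39 to 22.1 kb, with 58.5 kb among peaks scoring at least 100 and -1.76 kb at equal length. The median score difference of -7.07 ran from -20.6 to 1.44 over single omissions and was -52.2 at equal length, where the width difference was -123 bp, the covered length difference -3.52 Mb and that in the share on chromosome X -0.112 points. Likeness to E0 by the Jaccard index differed by -0.0741 (exact permutation p = 0.0286) among peaks scoring at least 100. The share without an E0 peak differed by -8.85 with lists as deposited, -2.55 with lists of 12000 and -15.5 points among peaks scoring at least 100, and over single omissions by -2.91 to 3.62, and the share of E0 consensus regions by -6.43 to 0.638 over single omissions, -18.5 as deposited, -0.811 with lists of 12000 and -22.9 among peaks scoring at least 100. Within less between likeness ran from -0.00114 to 0.118. E1-only regions numbered 782 to 9338 over single omissions, 505 at equal length, 226 with lists of 12000 and 275 with scores of at least 100. E4-only regions numbered 21 to 67, 97, 61 and 5 in the same order, and 4 with 50% of the region covered. Without the 3 lists with the widest peaks the numbers were 13985 and 110, and at equal length 2612 and 569. Single omissions at equal length gave 588 to 1096 E1-only regions and, without E1 replicates 1 to 4, 147, 142, 129 and 128 and, without E4 replicates 1 to 4, 202, 204, 278 and 235 E4-only regions. The causes were not tested, beyond the relaxed criterion of an omission. Limma's calls, higher and lower, were 1 and 1 on normal scores, 15 and 8 on log2 scores, 6 and 0 among regions in at least 6 lists, and 0 to 8 and 0 to 9 over single omissions. With the replicate block they were 0 and 0 (518 and 624 at an unadjusted p under 0.05), and paired sign-flip tests gave exact p from 0.125, the smallest possible, to 1, and changed no call. By their labels, same-numbered libraries share only a number. Their deviations from the group means correlated at 0.196, 0.0582, 0.134 and 0.0643, and not every library correlated best with its own number. Replicates 1 and 2 of E1 correlated positively with replicates 1 and 2 of E4, at 0.0582 to 0.249. Replicates 3 and 4 did so with replicates 3 and 4, at 0.0643 to 0.181. Every pair across these 2 sets correlated negatively, from -0.217 to -0.0546. What these sets share was not tested. The other comparisons of these values held their direction and side of the threshold. Unknown depth limits every count of presence.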

Other observations

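With E4 replicate 1 left out, limma called 17 regions. The 8 called higher at E4 were narrow, 284 to 722 bp with a median of 370.5 bp, against a median of 1263 bp for all regions held by the 8 lists. Their percentiles were 0.0624 to 36.8 in the E1 libraries, 0.504 to 22.3 in E4 replicate 1 and 56.8 to 98.6 in E4 replicates 2 to 4. In 7 of the 8, E4 replicate 1 lay at or below the highest E1 library. The 9 called lower were 739 to 1930 bp wide, with a median of 1290 bp, and E4 replicate 1 lay at or above the lowest E1 library in 3 of them (limma, adjusted p from 0.0397 to 0.0415 for the 17). With all 8 libraries the 8 differed by 46.8 to 55.6 points and the 9 by -67.3 to -20.4 points, and none passed. E4 replicate 1 also had the widest peaks of the 8 lists, and the part of peak width in these calls was not tested.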
